A study of Mus musculus with 20 samples.

Results

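The collagen genes of mouse embryonic stem cells are described here across 3 sorted cell states and the unsorted culture. Members were all protein-coding genes of the RNA-seq table whose symbol reads Col, a number, a and a number. This gave 44 of the 29692 genes listed, and 44 of 18045 protein-coding genes. The RNA came from mouse embryonic stem cells grown in serum with leukemia inhibitory factor and sorted by flow cytometry. The sort used the pluripotency factors Nanog and Sox2: state 1 cells were high for both, state 2 cells were Nanog-low with Sox2 still high, and both factors were low in state 3 cells. The unsorted total population was carried along as a further group. The labels used here give no strain, genotype or cell line name, and do not say whether replicates were separate cultures.

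Collagens are secreted or membrane-bound proteins in which 3 chains wind into a triple helix, and each chain has its own gene. Fibrillar collagens build the banded fibrils of connective tissue, and type IV collagen forms the sheet-like network of basement membranes, which in the early embryo underlies epiblast and endoderm. Other classes decorate fibrils, anchor epithelia, form beaded filaments or span the cell membrane. A chain that lacks its partner chains is usually kept in the cell and degraded, so partner chains are described together below.

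Each group had 3 libraries for RNA-seq and 2 for small RNA-seq. Each table holds 1 normalized value per gene and group, set by the authors, so no value below carries a spread between libraries. The RNA-seq columns summed to between 16916246 and 17726044, and 1 read was worth about 0.28 to 0.36. A value of 0 therefore allows up to 0.84 to 1.08, about 3 reads, for counting error only. The values are not per length, so levels of different genes are not ranked. A difference was called where the probabilities that the authors' EBSeq model gave to patterns separating 2 groups summed to at least 0.95. "Rose" and "fell" are used only for such calls. Log2 ratios were taken after adding 1 to each value. This makes them smaller in size than the plain ratio of the 2 values, most so for genes with low values. The sorted genes followed their labels: Nanog had 4145, 743 and 440.0 in states 1, 2 and 3, and Sox2 4155, 3167 and 1306. In sorted bulk samples, more cells of a type and more RNA per cell cannot be told apart.

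Collagen RNA was higher in the Nanog-low states, and highest for most genes in state 3. From state 1 to state 2, 12 of the 44 genes rose and none fell, with a median log2 ratio of 0.68. The authors' patterns are not spelled out in the table, and with state 1 and the total population exchanged in the order inferred for them 7 of these calls were left. Among all genes listed, 7.11% rose and 6.33% fell in this comparison (13.4% either way), and among protein-coding genes 11.1% rose and 9.78% fell (20.8%). From state 2 to state 3, 9 collagen genes rose and 1 fell, with a median of 0.59. In that comparison 5.41% of all genes rose and 3.19% fell (8.59% either way), and the protein-coding shares were 8.55% and 4.9% (13.4%). Between state 1 and state 3, 17 rose and 2 fell, with a median of 1.24. The shares over all genes were 11.4% and 9.01% (20.4% either way), and over protein-coding genes 17.7% and 13.8% (31.5%). The median log2 ratio over all genes was 0 in each comparison. The comparisons share state 1 or state 2 as their base, so they are not independent of each other. Over states 1, 2 and 3 in turn, 29 of the 44 genes ran upward in value (65.9%) and 4 downward (9.09%). Over all genes listed, noncoding ones included, the shares were 24.2% and 22.6%. Among the 29 were 13 genes called in no comparison.

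**Figure D1:**
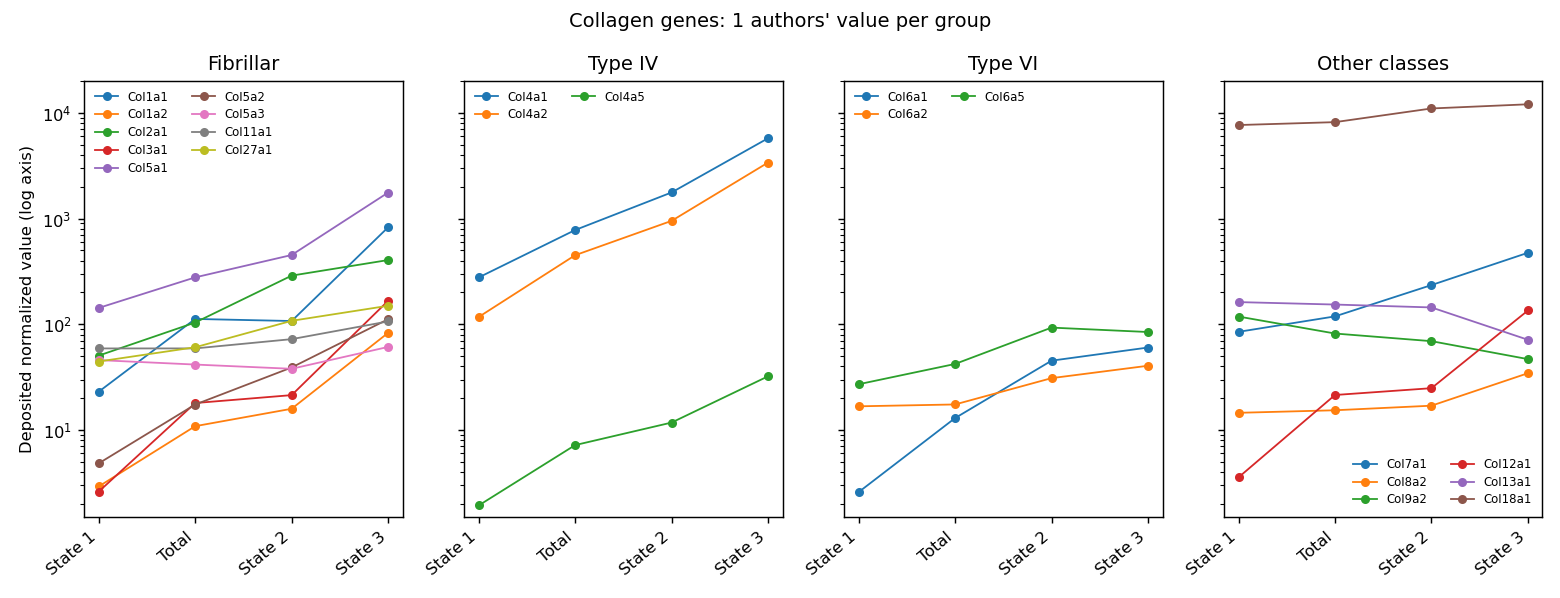
Deposited normalized value (log axis, not per length) of 21 collagen genes in state 1, the total population, state 2 and state 3, in panels by class; each point is the authors' 1 value for a group and lines join the points of a gene. Col4a1 climbs from 277 to 5754 and Col3a1 from 2.61 to 167, whereas Col13a1 and Col9a2 run downward.

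Type IV collagen was called for its 2 main chains at both steps. Col4a1 (ENSMUSG00000031502.11, chromosome 8, 11198423 to 11312889 in GRCm38) encodes the alpha-1 chain of the common basement membrane network. Its value was 277 in state 1, 1767 in state 2, 5754 in state 3 and 779 in the total population. Col4a2 (ENSMUSG00000031503.13, chromosome 8, 11312805 to 11449287) encodes the alpha-2 chain, which joins 2 alpha-1 chains in the same helix. Its value was 117 in state 1, 951 in state 2, 3388 in state 3 and 449.9 in the total population. Both genes rose at each step: from state 1 to state 2 by 2.67 and 3.01 on the log2 scale, and from state 2 to state 3 by 1.70 and 1.83. These first-step calls rest on the order in which the authors' patterns were read: with state 1 and the total population exchanged, the summed probabilities were 0.816 for Col4a1 and 0.656 for Col4a2. The exchanged sums are those that the order used here gives for state 2 against the total population. That population lay between states 1 and 2 in value for both genes. Across both steps, called under either order, the linear rise was 20.8-fold for Col4a1 and 28.9-fold for Col4a2. The ratio of the Col4a1 value to the Col4a2 value was 2.37 in state 1, 1.86 in state 2 and 1.70 in state 3. The ratio became smaller as both rose, so Col4a2 changed proportionally more in these values. With no spread between libraries, that difference between the chains was not tested. The absolute size of the ratio has no meaning without gene lengths.

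Col4a1 and Col4a2 lie head to head, and their RefSeq spans overlap. RefSeq places their starts so close that the window from 250 bases before to 50 after each start shares 78 bases with the other. The 22 bases chr8:11312805-11312826 in GRCm38.p6 run from the Col4a2 start to the Col4a1 start in the RefSeq promoter entries. They are shown because both genes rose together. Each gene reads across these bases, so they lie inside both genes and not between them. The RefSeq span of Col4a1 reaches further, to 11312889. The first line reads in the direction of Col4a2 and the second in that of Col4a1, and capitals mark a GC box (GGGCGG or CCGCCC).
Col4a2: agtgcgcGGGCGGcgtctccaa
Col4a1: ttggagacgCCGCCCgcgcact

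The 4 minor type IV chains are arranged in pairs as well and had far fewer reads. Col4a5 (chromosome X, 141475370 to 141689236) encodes the alpha-5 chain of kidney and smooth muscle basement membranes. It had 1.93 in state 1, 11.8 in state 2 and 32.2 in state 3, about 6, 42 and 89 reads, and rose between states 1 and 3 (log2 3.50). Its neighbour Col4a6, which starts 1344 bases away on the opposite strand, was listed at 0 in state 1, 6.79 in state 2 and 12.7 in state 3. Col4a6 was not called: the authors' deposited table gives it an equal-groups score of 0.995. Col4a3 and Col4a4, the alpha-3 and alpha-4 chains of the kidney filter, overlap on chromosome 1 and stayed at or below 2.15 and 7.76. All 6 type IV genes had a log2 ratio above 0 at both steps, and 3 of them were called between states 1 and 3.

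Of the 11 fibrillar collagen genes, 4 rose from state 1 to state 2, 5 from state 2 to state 3 and 7 across both, with none falling. Col1a1 (ENSMUSG00000001506.10, chromosome 11, 94936224 to 94953042) and Col1a2 (ENSMUSG00000029661.16, chromosome 6, 4505618 to 4541543) encode the chains of type I collagen, the main protein of bone and skin. Col1a1 had 23.0 in state 1, 107 in state 2, 827 in state 3 and 112 in the total population. Col1a2 had 2.92, 15.9, 83.0 and 10.9 in the same order. Both rose from state 2 to state 3, by 2.94 and 2.32 on the log2 scale. The first step had log2 ratios of 2.17 and 2.11, but with summed probabilities of 0.790 and 0.923 it was not called for either gene. The Col1a1 value relative to Col1a2 was 7.88, 6.76 and 9.97 in states 1, 2 and 3. Over both steps Col1a1 was 36.0-fold and Col1a2 28.4-fold higher, the latter from about 9 reads in state 1.

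Col3a1 and Col5a2 are neighbours on chromosome 1, with 24.6 kb between their RefSeq spans. Col3a1 (ENSMUSG00000026043.18, chromosome 1, 45311538 to 45349706) encodes type III collagen, which forms fine fibrils beside type I in elastic tissue. Its value was 2.61 in state 1, 21.4 in state 2, 167 in state 3 and 18.0 in the total population. The rise across both steps, log2 5.54, started from about 8 reads in state 1. It was the largest log2 ratio among the 44 genes with 1 added to each value, but with 5 added it was 4.50, below 4.89 for Col1a1 and 4.80 for Col4a2. Col5a2, a chain of the type V collagen that starts fibrils, had 4.83, 39.0, 112 and 17.4. Col3a1 and Col5a2 rose at both steps, but with the exchanged pattern order the first step had summed probabilities of 0.376 and 0.914 and was not called. Col5a1 (ENSMUSG00000026837.15, chromosome 2, 27886381 to 28039510), its partner chain, had 143 in state 1, 452 in state 2, 1762 in state 3 and 278 in the total population. Col5a1 rose from state 2 to state 3 (log2 1.96), while its first step of 1.66 had a summed probability of 0.937.

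The remaining fibrillar genes divided between an early rise and no call. Col2a1 (chromosome 15, 97975602 to 98004724) encodes the collagen of cartilage and notochord. It rose from 50.5 in state 1 to 289 in state 2 (log2 2.49) and had 405 in state 3, a second step that was not called. Col27a1, a fibrillar collagen of growing cartilage, rose from 44.4 to 108 (log2 1.26) and had 149.6 in state 3. Col5a3 (45.8, 37.9 and 61.0 in states 1, 2 and 3) and Col11a1 (59.1, 72.3 and 106) were not called in any comparison, nor were Col11a2 and Col24a1. All 11 fibrillar genes had a log2 ratio above 0 between states 2 and 3.

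**Figure D2:**
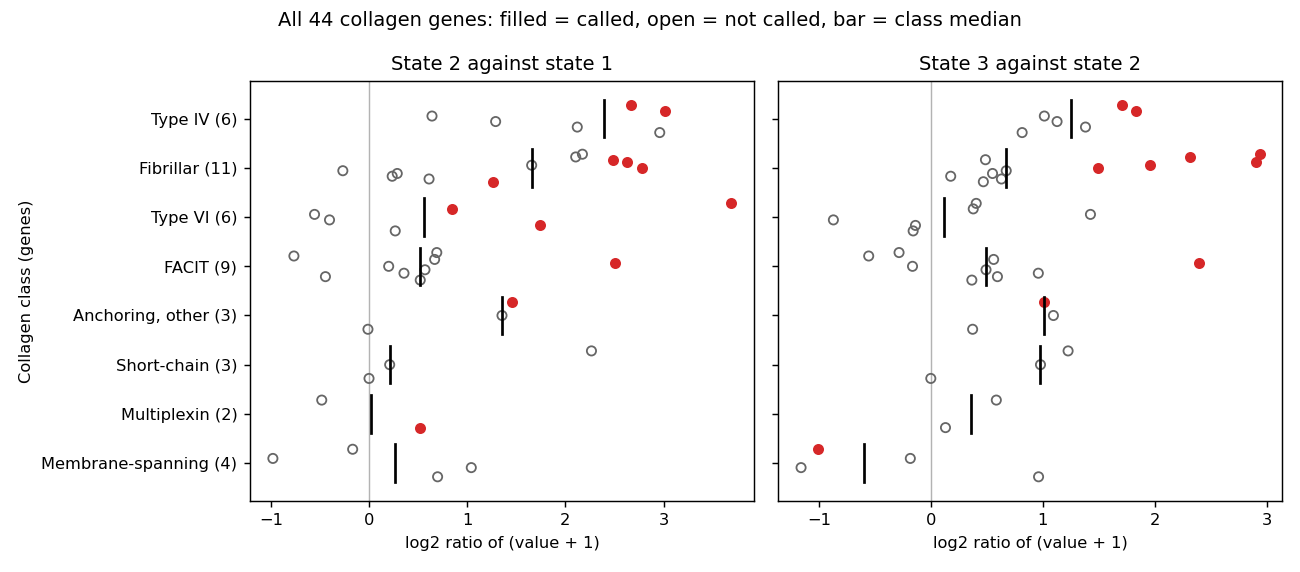
Log2 ratio of the value plus 1 for all 44 collagen genes, by class, for state 2 against state 1 (left) and state 3 against state 2 (right); each point is a gene, filled where called and open where not, and the bar is the class median. Filled fibrillar points reach 2.94 on the right, whereas the 3 filled type VI points stand on the left alone.

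The upstream sequences of Col3a1 and Col1a2 are shown because, among fibrillar genes with an entry in the RefSeq promoter table, these had the largest log2 ratios between states 3 and 1. Each line holds the 250 bases before the start, on the plus strand of GRCm38.p6, chr6:4505368-4505617 for Col1a2 and chr1:45311288-45311537 for Col3a1. Capitals mark matches, on either strand, to the GC box GGGCGG, the CCAAT box CCAAT, the TATA box TATAAA, the AP-1 site TGANTCA and the TEAD site GGAATG.
Col1a2: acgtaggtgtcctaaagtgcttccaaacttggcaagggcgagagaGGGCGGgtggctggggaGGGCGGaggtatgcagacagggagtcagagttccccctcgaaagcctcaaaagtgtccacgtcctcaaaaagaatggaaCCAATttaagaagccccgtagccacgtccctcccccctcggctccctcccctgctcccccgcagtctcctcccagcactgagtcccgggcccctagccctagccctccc
Col3a1: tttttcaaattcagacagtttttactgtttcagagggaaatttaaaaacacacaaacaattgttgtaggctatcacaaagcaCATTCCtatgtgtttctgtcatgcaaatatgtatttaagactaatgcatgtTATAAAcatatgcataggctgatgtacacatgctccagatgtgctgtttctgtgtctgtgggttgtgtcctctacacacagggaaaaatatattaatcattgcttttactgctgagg
The Col1a2 stretch held 2 GC boxes and a CCAAT box, and the Col3a1 stretch held a TATA box and a TEAD site. The GC boxes began 205 and 188 bases before the Col1a2 start and the CCAAT box 109, and in Col3a1 the TATA box began 117 bases and the TEAD site 168 bases before the start. Of the 44 genes, 35 had a promoter entry. In windows of 300 bases the GC box was in 22 of these 35 genes (62.9%) and in 60.4% of 13602 protein-coding genes. The CCAAT box was in 37.1% against 42.2%, the TATA box in 14.3% against 10.7%, the TEAD site in 14.3% against 15.1% and the AP-1 site in 2.86% against 7.12%. Each share over all genes lay inside the 95% Wilson interval of the collagen share. That interval was 46.3% to 76.8% for the GC box and 0.506% to 14.5% for the AP-1 site. It takes the genes as independent, but the Col4a1 and Col4a2 windows share 78 bases. In the last 150 bases before the start alone, the CCAAT box was in 22.9% of the collagen genes and 30.5% of all. A match is a run of letters and not a measured binding site.

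Type VI collagens, which form beaded filaments around cells, had 3 calls at the first step and none at the second. Col6a1 (chromosome 10, 76708792 to 76726044) had 2.58 in state 1, 45.2 in state 2, 60.2 in state 3 and 12.9 in the total population. The first step was a 17.5-fold rise from about 8 reads, and the second was not called. Col6a2, the neighbouring gene for the partner chain, had 16.7, 30.9, 40.5 and 17.4 and rose by 0.85 on the log2 scale at the first step. The value of Col6a1 relative to Col6a2 thus moved from 0.154 in state 1 to 1.46 in state 2 and 1.49 in state 3. Col6a5 on chromosome 9, an alternative to the alpha-3 chain, rose from 27.1 to 93.0 and had 84.5 in state 3. Its neighbours Col6a4 (13.8, 10.2 and 5.14) and Col6a6 (11.9, 14.6 and 12.9) were not called, nor was the alpha-3 chain gene Col6a3, at 2.09 to 7.30.

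Col18a1 (ENSMUSG00000001435.15, chromosome 10, 77052178 to 77166530) encodes type XVIII collagen, a basement membrane proteoglycan whose end piece is endostatin. It had 7668 in state 1, 11003 in state 2, 12051 in state 3 and 8168 in the total population. It rose at the first step (log2 0.52), and its second step of 0.13 had a summed probability of 0.00359 for a difference. Its relative, Col15a1, stayed between 0.64 and 1.46 and was not called. Because its value was high in every group, Col18a1 made up 85.3% of the summed collagen value in state 1, 70.1% in state 2 and 46.2% in state 3.

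The sum over all 44 genes was 8985 in state 1, 15689 in state 2, 26059 in state 3 and 10682 in the total population. Without Col18a1 it was 1316, 4686, 14008 and 2514. The 6 type IV genes supplied 4.42% of the sum in state 1 and 35.3% in state 3, and the 11 fibrillar genes 4.34% and 14.2%. In value, type IV went from 397 to 9197 and fibrillar from 390 to 3695, while Col18a1 became a smaller share of the sum at a higher value of its own. Long transcripts weigh more in such sums than short ones, which limits the comparison between classes.

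**Figure D3:**
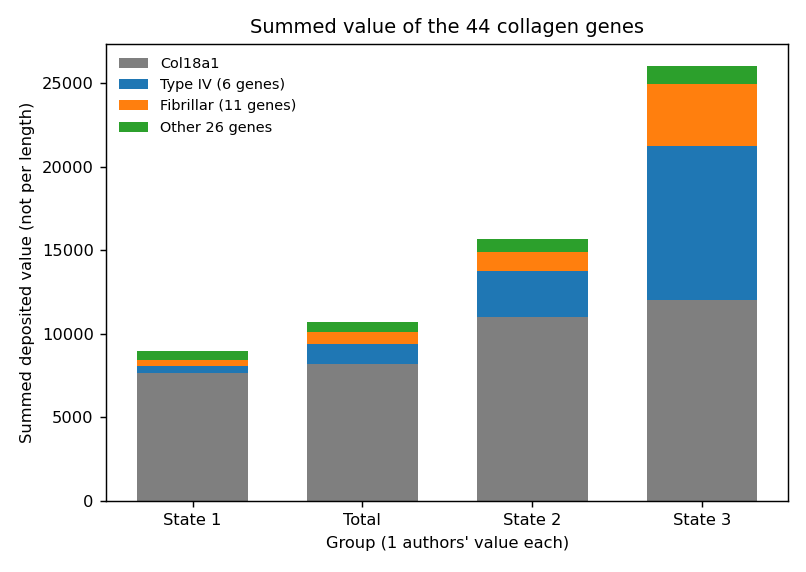
Summed deposited value of the 44 collagen genes in each group, stacked as Col18a1, the 6 type IV genes, the 11 fibrillar genes and the other 26 genes; each bar is built from the authors' 1 value per gene and group, not per length. The Col18a1 block goes from 7668 to 12051 while the type IV block goes from 397 to 9197.

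Collagens of epithelial attachment and of fibril surfaces gave single risers in each class. Col7a1 (chromosome 9, 108953586 to 108984875), the anchoring fibril that ties epidermis to dermis, had 84.8 in state 1, 235 in state 2, 475 in state 3 and 119 in the total population, and rose at both steps. Col12a1 (chromosome 9, 79598987 to 79721141), a fibril-associated collagen of tendon and of matrix under load, had 3.56, 24.9, 135 and 21.4. It also rose at both steps, 37.9-fold in all from about 11 reads; with the exchanged pattern order its first step had a summed probability of 0.336. Col8a2, a short-chain collagen of the corneal basement membrane, had 14.5, 17.0 and 34.4 in states 1, 2 and 3 and rose between states 1 and 3 alone (log2 1.19).

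Col13a1 and Col9a2 were the genes that fell. Col13a1 (chromosome 10, 61838234 to 61979206) encodes a membrane-spanning collagen of cell junctions. It had 162 in state 1, 144 in state 2, 71.3 in state 3 and 154 in the total population, and fell between states 2 and 3 by 1.01 on the log2 scale. Col9a2 (chromosome 4, 121039566 to 121055325), a fibril-associated chain of cartilage, had 118, 69.2, 46.8 and 81.7. It fell between states 1 and 3 (log2 -1.32), and each single step was not called. Its partner chain Col9a3 had 13.2 in state 1 and 32.3 in state 3 and was not called. Col9a3 overlaps Tcfl5 in RefSeq, which had 301 in state 1 and 623 in state 3, and the counting of reads that overlap 2 genes was not given in the sources used here.

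The shape over the 3 states differed among the members. Joint probabilities of at least 0.95 for 3 unequal states were reached by 6 genes: Col3a1, Col4a1, Col4a2, Col5a2, Col7a1 and Col12a1. Over all genes 3.51% reached this limit. With the exchanged pattern order Col7a1 was the 1 gene of the 6 still at the limit, and the others had joint probabilities from 0.335 for Col12a1 to 0.897 for Col5a2. Col18a1 alone reached it for state 1 apart from equal states 2 and 3 (3.78% of all genes), followed by Col6a5 at 0.939 and Col27a1 at 0.936. Col13a1 alone reached it for state 3 apart from equal states 1 and 2 (1.65% of all genes), at 0.953. In the 19 genes called between states 1 and 3, state 2 had covered a median of 0.606 of the log2 distance, beside 0.603 for all 6070 genes called. The range ran from 0.142 for Col13a1 and 0.177 for Col8a2 through 0.426 for Col1a1 to 0.901 for Col6a1. For Col6a5 it was 1.09, since state 2 exceeded state 3 slightly.

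No call was made for 25 of the 44 genes, and 23 of the 44 neither had a call nor reached a value of 50. These 23 lay between 0 and 34.9 in all groups. They are Col4a3, Col4a4, Col4a6, Col6a3, Col6a4, Col6a6, Col8a1, Col9a1, Col9a3, Col10a1, Col11a2, Col14a1, Col15a1, Col16a1, Col17a1, Col19a1, Col20a1, Col22a1, Col23a1, Col24a1, Col25a1, Col26a1 and Col28a1. Col10a1, the collagen of hypertrophic cartilage, was listed at 0 in all 3 states. Col26a1 came nearest to a call, with 1.62 in state 1, 13.3 in state 3 and a summed probability of 0.939. Col25a1, a membrane-spanning collagen of muscle innervation, had 3.88, 6.92 and 14.4 in states 1, 2 and 3. Col17a1, a hemidesmosome collagen of epithelia, had 13.6, 6.39 and 5.51. The authors' deposited table gives an equal-groups score within 1e-06 of 1 to 17 of the 44 collagen genes and to 46.8% of all genes. Col9a3, Col22a1 and Col25a1 were among these in spite of log2 ratios of 1.23, 0.89 and 1.66 between states 3 and 1. Of the 2902 genes with a mean of at least 10 and a log2 ratio of at least 1 either way, 154 had such a score, so an absent call does not show that a gene was equal.

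Collagen genes that lie side by side did not move by like amounts in each case. Between states 1 and 3, Col3a1 and Col5a2 had log2 ratios of 5.54 and 4.27 and Col4a1 and Col4a2 4.37 and 4.84. Col6a1 had 4.10, while Col6a2, 85.2 kb away, had 1.23 and Col18a1, 326 kb away, had 0.65. In the cluster on chromosome 9 the ratios were 0.11 for Col6a6, 1.61 for Col6a5 and -1.27 for Col6a4, with Col6a5 the called gene of the 3. No test of the difference between neighbours was possible with 1 value per group.

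The total population was compared with state 1 to see how far the unsorted culture departed from Nanog-high cells. In all, 5 collagen genes, Col2a1, Col3a1, Col4a1, Col4a2 and Col12a1, were higher in the total population (median log2 ratio over the 44 genes 0.23) and none was lower. In this comparison 1.27% of all genes were higher and 0.707% lower (1.98% either way), and the protein-coding shares were 1.99% and 1.12% (3.11%). At a limit of 0.99 in place of 0.95, Col3a1 and Col4a2 were the 2 genes still called. In 16 of the 17 genes that rose from state 1 to state 3, the total population lay between state 1 and state 2. The exception was Col1a1, at 112 in the total population and 107 in state 2. Among all 3394 genes that rose from state 1 to state 3, 78.3% lay between state 1 and state 2 in the same way.

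Partner genes of collagen were looked at by role. The lists of partner genes were taken from textbook pathways, with earlier results of these data known. Of 18 genes for modification and folding, 10 rose and 1 fell between states 1 and 3 (median log2 ratio 0.85). In that comparison, which is also the one used for the lists that follow, 17.7% of protein-coding genes rose and 13.8% fell. P3h2, a prolyl 3-hydroxylase that acts on type IV chains, had 2.59 in state 1, 26.4 in state 2 and 59.1 in state 3. Serpinh1, the chaperone Hsp47 that is specific to collagen, had 575, 1106 and 2483 and was called only across both steps. P4ha2, a prolyl 4-hydroxylase subunit that stabilises the helix, had 77.7, 133 and 227, and Plod2, a lysyl hydroxylase for crosslinks, had 314, 688 and 824. Crtap, a subunit of the prolyl 3-hydroxylase complex, was the 1 gene that fell, from 672 to 444.

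Of 17 listed genes for export, cleavage and crosslinking, 8 rose and 1 fell between states 1 and 3 (median 0.44). The export genes Mia3, Sec23a and Sec13 were not called, with log2 ratios of 0.215, -0.061 and -0.0081. Lysyl oxidases join chains covalently outside the cell, and 3 of the 5 listed, Loxl4, Lox and Loxl2, rose. Loxl4 had 5.52 in state 1, 43.4 in state 2 and 247 in state 3, Lox 0.33, 12.3 and 40.7, and Loxl2 96.4, 364 and 1437. The Lox value in state 1 was about 1 read, so the size of its rise is uncertain. Loxl1 (73.2 in state 1 and 78.1 in state 3) and Loxl3 (22.2 and 25.3) were not called. Pxdn, the peroxidasin that forms the sulfilimine bond of type IV collagen, had 169, 995 and 2443 and rose at both steps. Adamts14, a protease that removes the amino-terminal propeptide of fibrillar chains, fell from 318 to 125 and 50.2; it is named as the 1 gene that fell between states 1 and 3. Pcolce, which enhances removal of the other propeptide, fell from 1546 in state 1 to 740.4 in state 2 and had 1093 in state 3.

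Of 10 collagen receptors, 5 rose and 1 fell between states 1 and 3 (median 1.43). The 2 discoidin domain receptors, tyrosine kinases that bind collagen, went opposite ways. Ddr1, the epithelial form, rose from 353 in state 1 to 1489 in state 2 and 2342 in state 3. Ddr2, the mesenchymal form that binds fibrillar collagen, fell from 33.6 to 3.30 and had 2.92 in state 3. Itga11, an integrin subunit for fibrillar collagen, had 0.98, 5.02 and 11.3, and Mrc2, an endocytic collagen receptor, 60.5, 292 and 343. The Itga11 value in state 1 was about 3 reads.

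Laminins and other basement membrane proteins did not all follow type IV collagen. Of 14 genes, 7 rose and 1 fell between states 1 and 3 (median 0.64), among them Lamb3, Lama4 and Lamb1 with log2 ratios of 3.00, 2.72 and 1.67. Lamb1, a beta chain of the embryonic laminins, had 1477 in state 1, 3106 in state 2 and 4714 in state 3. The gamma chain gene Lamc1, the 1 gene that fell between states 1 and 3, had 13202, 8932 and 10619. Nid1, nidogen, which links laminin to type IV collagen, fell from 2295 in state 1 to 791 in state 2 and rose to 1681 in state 3. From state 2 to state 3, 9 of the 14 genes rose, Lamc1 and Nid1 among them, and none fell. The protein-coding shares at that step were 8.55% and 4.9%. Of 9 listed genes that regulate fibrils, 3 rose (Thbs1, Bgn and Ctgf) and Fn1, fibronectin, fell from 27060 in state 1 to 17691 in state 3. Of 5 listed proteases that cleave collagen, Mmp9 rose from 23.6 to 271, Mmp2 from 144 to 431 and Mmp14 from 816 to 1874 between states 1 and 3.

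**Figure D4:**
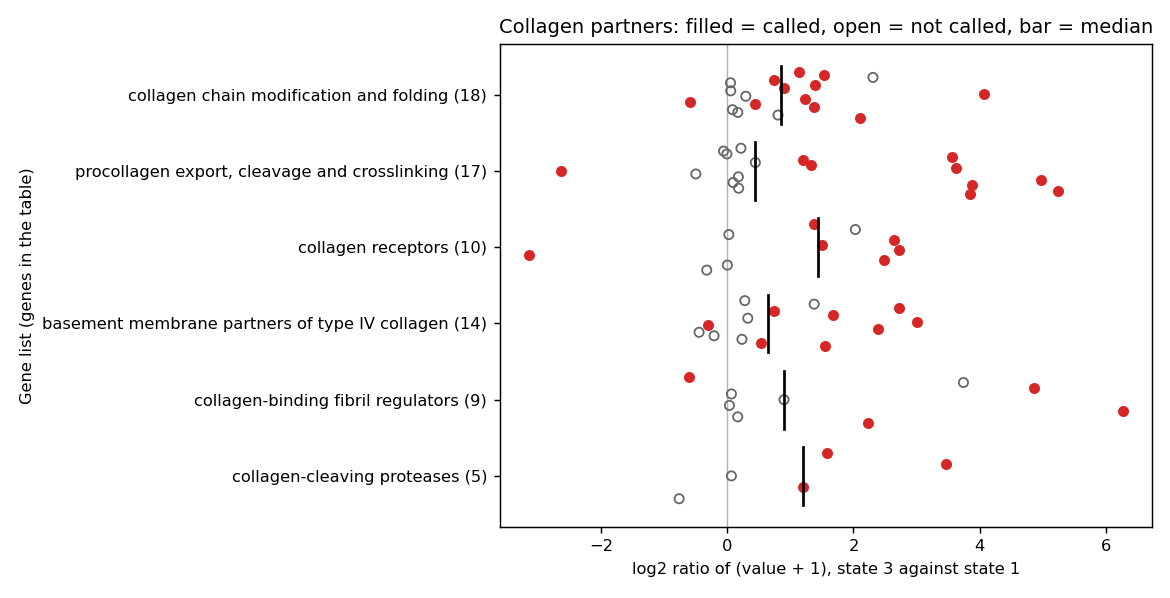
Log2 ratio of the value plus 1 for state 3 against state 1 in 6 lists of collagen partner genes; each point is a gene, filled where called and open where not, and the bar is the list's median. Loxl4 (5.25) and Thbs1 (6.27) stand at the right, and Ddr2 (-3.14) and Adamts14 (-2.64) at the left.

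Markers of other cell types are given beside the same shares of protein-coding genes between states 1 and 3, 17.7% higher and 13.8% lower. Of 9 listed fibroblast markers 3 rose between states 1 and 3, namely Pdgfrb, Twist1 and Twist2, and their summed value was 77.1 in state 1, 92.1 in state 2 and 228 in state 3. Dcn and Tcf21 were listed at 0 in state 1 and had 12.4 and 0.73 in state 3, and Lum had 1.46 there. Dcn and Lum also stand in the list of fibril regulators. Of 10 markers of primitive and parietal endoderm, a tissue that secretes type IV collagen, 8 rose, with sums of 169, 516 and 1001. From state 1 to state 2, 4 of the 10 rose and Sox7 fell, from 69.2 to 22.9. From state 2 to state 3, 7 of the 10 rose, beside 8.55% of protein-coding genes, and none fell. Sox7 was among these, at 76.5 in state 3, but was not called between states 1 and 3, nor was Gata6 (5.51, 3.14 and 30.8). Of 5 contractile markers 3 rose (Acta2, Tagln and Cnn1), with sums of 429, 1504 and 4974, whereas Myh11 stayed at 2.92 to 4.42. Des gave most of that state 1 sum, had 335, 265 and 437, and was not called. Of 6 listed markers of chondrocytes and notochord 2 rose, Sox9 from 1.94 to 73.1 and T from 4.52 to 84.6. For 6 chondrocyte and notochord markers the sums were 149, 181 and 293. Acan gave most of the state 1 sum, had 116, 88.8 and 93.8, and was not called, nor were Matn1, Matn3 and Shh. Of 5 endothelial markers Kdr and Cdh5 rose and Pecam1 fell, with sums of 864, 695 and 343. Pecam1 alone had 782, 577 and 162 of these, so the sums mostly follow that gene. Kdr went from 6.13 in state 1 to 84.2 in state 3 and Cdh5 from 7.41 to 33.1, and Tek and Tie1 were not called. Of 8 pluripotency markers 6 fell, with sums of 55751, 33394 and 23752, and Pou5f1, not called, had 13810.4, 10275 and 9826. The part of any of these cell types in the collagen values was not tested.

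The small RNA libraries, which carry other replicate letters than the RNA-seq libraries, came from the same 4 kinds of population. Collagen messenger RNAs are textbook targets of the miR-29 family, whose mature forms are shown from RefSeq with the shared seed (bases 2 to 8) in capitals.
mmu-miR-29a-3p: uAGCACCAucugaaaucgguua
mmu-miR-29b-3p: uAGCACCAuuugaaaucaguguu
mmu-miR-29c-3p: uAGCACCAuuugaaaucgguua
The hairpin of miR-29a had 65.4 in state 1, 67.7 in state 2, 44.7 in state 3 and 67.1 in the total population. The hairpins miR-29b-1 and miR-29c stayed between 1.68 and 4.33 in all groups. None of the 3 hairpins listed was called in any comparison, with summed probabilities of at most 0.215, beside 0.696%, 0.97%, 1.63% and 0.194% of 26278 features called in the 4 comparisons. The column totals of this table ran from 2610236 to 5127199, so a value is not a fixed share of a library. Reads from collagen genes themselves were few in these libraries. The 37 collagen genes listed summed to 49.2 in state 1, 92.6 in state 2 and 117 in state 3, Col18a1 giving 26.2, 58.5 and 72.0 of these, and none was called.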

How the data were processed

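RNA-seq libraries were rRNA-depleted and small RNA libraries ligated to adapters, per the labels' protocols; mm10 and GRCm38 are listed as builds and STAR 2.4.1d and RSEM 1.2.30 as tools, without role, per the submitters' processing notes. Values in both deposited tables are a normalized signal with the libraries of a group merged by the authors; the scaling was not given in the sources used here. The authors also give a score for each of 15 EBSeq patterns of equal and unequal groups, per the file headers.

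Patterns were read in EBSeq's order for state 3, state 2, state 1 and total population. With this order, groups set equal lay closer in 100.0% of 1453 RNA-seq and 161 small RNA features that had 1 pattern at 0.95 or above and averaged 5 or more. Exchanging state 1 and the total population gave 96.6% and 85.7%. For state 2 against state 1, the exchanged sum is the one that the order used gives for state 2 against the total population. Scores of patterns that separate 2 groups were summed over the whole table and called at 0.95. The summing of scores was tested on simulated data, which checks the arithmetic and not the authors' scores. No test over libraries was possible, so no p-value was computed.

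The members, lists and rules were chosen with earlier results of these data known. Genes named were members called in any comparison or reaching 50, and up to 4 called members of each partner list with the largest change between states 1 and 3; further genes are named after their values were seen, as the few that fell in a list or as markers. The values of 1 gene that the rule names are not reported here. Coordinates are from RefSeq genes of GRCm38.p6, matched by symbol for 44 of 44 genes. The commonest low value in a column was taken as 1 read, which sets the approximate read numbers and the limit of 3 reads. Calculations used Python 3.11.15 and pandas 2.3.3. Protein sequences were not analysed here.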

Additional observations from a re-analysis of the deposited data

How the results depend on the processing

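With a limit of 0.99 the calls of the total population against state 1 went from 5 to 2, and with state 1 and the total population exchanged in the pattern order, those of state 2 against state 1 went from 12 to 7, all higher, with Col3a1, Col4a1, Col4a2, Col5a2 and Col12a1 no longer called. The same exchange, added after seeing the data for the joint shapes, left 1 of 6 genes with 3 unequal states and kept the 1 gene of each other shape. Other counts stayed within 1.5 times: limits of 0.99 and 0.80 gave 11 and 16 calls between states 2 and 1, 8 and 12 between states 3 and 2, 18 and 22 between states 3 and 1, and at 0.80 there were 7 for the total population. At 0.80, 1 gene was lower in state 2, Col9a2. The median log2 ratio of the 44 genes kept its sign in all comparisons with pseudocounts of 0.1 and 5, both scalings and a mean of at least 5, for example 0.91 to 1.66 for state 3 against state 1. Out of 336 log2 ratios of named genes under other pseudocounts and scalings, none of a called gene turned and in 17 the fold on the linear scale moved by over 1.5 times, all with a pseudocount of 5. Leaving out replicates was not run. No paired analysis was possible because the tables hold 1 value per group and carry no replicate letters. Genes with few reads in state 1 have the least certain ratios.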
